A study of Mus musculus with 12 samples.

Results

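The 41 genes described here encode the machinery that carries newly made proteins into the endoplasmic reticulum (ER) and out of it again. They were taken by name, as a fixed list of 41 among the 38911 genes for which transcripts were counted, and all 41 passed the filter on low counts that left 16966 genes. The RNA came from mouse gastruloids, aggregates of embryonic stem (ES) cells that break symmetry and elongate in culture, made from E14TG2a, an established mouse ES cell line. All groups shared the same handling, with 2iLIF culture of the ES cells, 200 cells plated per gastruloid, a pulse of a Wnt agonist before treatment, treatment from day 3 and harvest on day 4. The 4 groups were no glucose (0X), 21.25 mM glucose (1X), 63.75 mM glucose (3X) and 5 mM 2-DG in 1X glucose, where 2-DG is the glucose analog 2-deoxy-D-glucose. Each group had 3 libraries of polyA RNA, 1 from each of ES cell passages 13, 15 and 16, and every library pooled the gastruloids that had received 1 treatment. The comparator of 2-DG is the 1X glucose group, whose labels do not say whether it received the PBS in which 2-DG was dissolved.

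Proteins destined for secretion or for membranes are recognised by the signal recognition particle, threaded through the Sec61 channel with the help of the translocon-associated protein complex, and trimmed by the signal peptidase. Folded cargo then leaves the ER in vesicles coated by COPII, and COPI vesicles bring escaped ER residents back from the Golgi. Secretory cells keep large amounts of this machinery, and transcription factors of the unfolded protein response are known to drive many of its genes when ER folding is disturbed, which interference with N-glycosylation can do.

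In 2-DG most of the machinery was higher, whereas neither removing nor raising glucose changed a single one of its genes at the threshold used. Of the 41 genes, 26 were higher in 2-DG than in 1X glucose, 1 (*Sar1b*) was lower and 14 did not pass an adjusted p of 0.05 (edgeR's quasi-likelihood test, Benjamini-Hochberg over all genes). Among all 16966 genes, 17.6% were called, 9.12% as higher and 8.51% as lower. Among genes with a mean CPM (counts scaled to library size with TMM factors) no lower than that of any of the 41, the share called higher was 10.5%. The median log2 fold change was 0.32 over the 41 genes and 0.00 over all genes tested. Summed over the 41 genes, the level was 5210 ± 191 CPM in 1X glucose, 5238 ± 125 CPM in 0X and 5205 ± 175 CPM in 3X. In 2-DG it was 6599.5 ± 180.1 CPM (SD over 3 libraries in every group). In bulk RNA, a change in the share of cells that express a gene and a change in RNA per cell cannot be told apart.

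**Figure D1:**
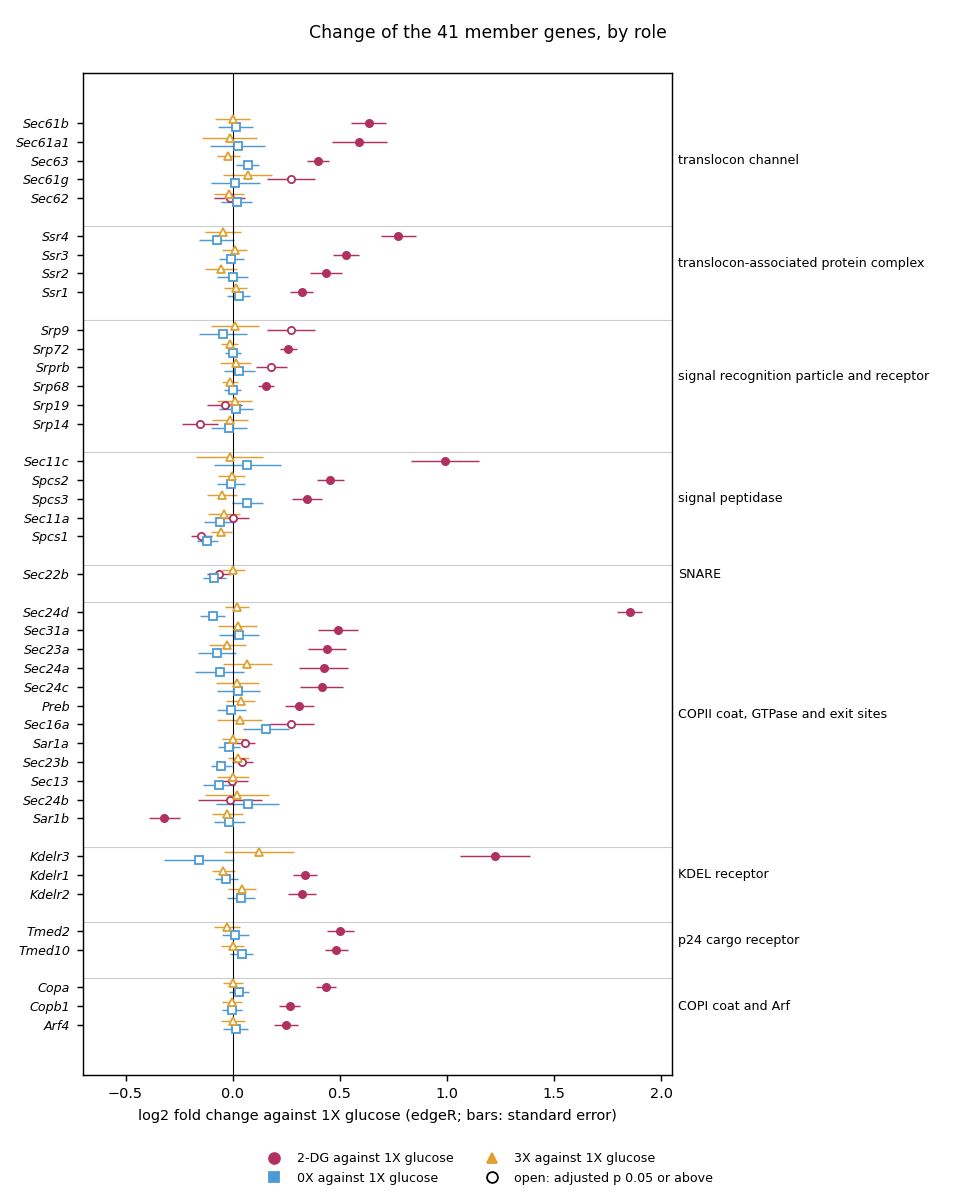
Log2 fold change against 1X glucose of each of the 41 genes, grouped by role, for 2-DG (circles), 0X (squares) and 3X glucose (triangles), with bars for the standard error and open symbols where the adjusted p was 0.05 or above. The 2-DG circles of 26 genes are filled and lie to the right of 0, *Sar1b* is the only filled circle to the left, and no square or triangle is filled.

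The libraries held 31902471 to 45956080 counts, and the replicates of a group were separate passages of 1 cell line. The markers of the gastruloids were lower in 2-DG as a sum, though not each of them. The summed CPM of *T*, *Sox2*, *Cdx2*, *Tbx6*, *Hoxb1*, *Meox1* and *Wnt3a* was 1022 to 1277 in 1X glucose, 941 to 1293 in 0X, 1063 to 1322 in 3X and 727 to 751 in 2-DG. All 7 genes were detected. Against 1X glucose 3 were called lower and none higher, and the log2 fold change was negative in 6 and positive in 1. With the passage as a replicate block, 5 were called lower and 1 higher. The ES cell line had first been grown on feeder fibroblasts, and 7 fibroblast markers summed to 11.3 to 15.1 CPM in 1X and 10.7 to 14.5 CPM in 2-DG. For endoderm, a secretory cell type, 11 markers summed to 4.72 to 12.8 CPM in 1X and 5.27 to 8.28 CPM in 2-DG, and *Afp* and *Ttr* had no count in any library of either group. The part of the change in gastruloid markers in the results given here was not tested.

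A short element lay next to the listed start of *Sec24d* and *Kdelr3*, which moved furthest, and of *Copb1* and *Sec23a*, which moved less. The window searched for each gene was the RefSeq promoter of assembly GRCm38.p6, from 250 bases before to 50 bases after a start, which was found for 33 of the 41 genes. The element is the UPRE core TGACGTGG, letters to which XBP1 and related factors are known to bind, searched on both strands. It was present in 4 of the 33 promoters and in 0.714% of 27025 genes with a promoter in the table. All 4 genes, *Sec24d*, *Kdelr3*, *Copb1* and *Sec23a*, were among the 26 that were higher in 2-DG. Of these 26, 19 had a promoter in the table, and the element was absent from most of the 19. *Sec11c*, the gene with the next largest change, had no promoter in the table. None of the 14 genes with a promoter that were not called higher held the element, but 4 genes are too few to compare the 19 with the 14. How many of all genes with the element were higher in 2-DG was not counted. Whether it bears on the change was not tested. The sequences are printed to show this shared element and its place, 5′ to 3′ on the strand of the gene, with the element in capitals (in *Kdelr3* and *Copb1* it lies on the opposite strand and reads as its reverse complement). For the first 3 the stretch is the 100 bases before the start, and for *Sec23a*, where the element lies just after the start, it is 30 bases around it.
Sec24d, chr3:123267396-123267495, plus strand: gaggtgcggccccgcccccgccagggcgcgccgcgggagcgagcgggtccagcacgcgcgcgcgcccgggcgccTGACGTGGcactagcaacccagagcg
Kdelr3, chr15:79516308-79516407, plus strand: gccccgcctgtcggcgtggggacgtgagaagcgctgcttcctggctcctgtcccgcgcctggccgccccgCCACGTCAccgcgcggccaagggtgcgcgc
Copb1, chr7:114254681-114254780, minus strand: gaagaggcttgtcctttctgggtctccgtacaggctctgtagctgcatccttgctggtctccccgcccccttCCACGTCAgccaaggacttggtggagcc
Sec23a, chr12:59011993-59012022, minus strand: ctcctccccttTGACGTGGcagaggcggca

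In the 3 upstream cases the element began 26 (*Sec24d*), 30 (*Kdelr3*) and 28 bases (*Copb1*) before the start. The start that the table gives for *Sec24d* lies inside the span listed for the gene. All counts of *Sec24d* lay on predicted RefSeq transcripts, 91.3% of them on a single one, and its curated transcript had 0 counts. Which transcript this start belongs to was not examined. The ER stress elements ERSE (CCAAT and CCACG with 9 bases between) and ERSE-II (ATTGG and CCACG with 1 base between) were found in none of the 33 promoters, and in 0.137% and 0.0444% of all genes. The shorter TGACGT, which the UPRE core contains, was in 9 of the 33 and in 8.37% of all genes. CCACG, whose reverse complement overlaps the end of the UPRE core, was in 21 of the 33 and in 35.5% of all genes, and CCAAT in 12 and 41.1%. CCACG and CCAAT in the same promoter were found for 8 of the 33 genes, 7 of them among the 19 higher genes, and for 13.3% of all genes. Such matches describe the letters in these windows and no binding was measured.

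At the ER membrane, the Sec61 channel and its partners were higher in part. *Sec61a1*, which encodes the pore-forming subunit, had 218, 263 and 295 CPM in 1X glucose at passages 13, 15 and 16, and 376, 406 and 388 CPM in 2-DG. All 2-DG libraries lay above all 1X libraries, although the 1X level differed between passages (log2 fold change 0.59, standard error 0.13, adjusted p = 0.0113). *Sec61b*, the beta subunit, had 71.1, 72.3 and 65.2 CPM in 1X glucose and 121, 104.3 and 98.5 CPM in 2-DG. The groups did not overlap and the difference was 1.55-fold (log2 fold change 0.63, standard error 0.083, adjusted p = 0.000879). *Sec63*, which recruits the chaperone BiP to the channel, rose from 140.0 ± 7.02 to 184 ± 6.44 CPM (log2 fold change 0.40, adjusted p = 0.000997). *Sec61g*, the gamma subunit, was called only with the passage as a replicate block (log2 fold change 0.27, adjusted p = 0.125 without the block and 0.000367 with it). *Sec62*, the partner of SEC63 in post-translational import, had a log2 fold change of −0.01 with a 95% interval of −0.15 to 0.12.

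The translocon-associated protein complex sits beside the channel and assists the entry of some proteins, and the genes of all 4 of its subunits were higher in 2-DG. *Ssr4*, the delta subunit, had 55.5, 52.1 and 50.6 CPM in 1X glucose at the 3 passages and 103, 85.8 and 81.6 CPM in 2-DG (log2 fold change 0.77, standard error 0.082, adjusted p = 0.0003). *Ssr3*, the gamma subunit, had 373, 409 and 384 CPM in 1X and 593, 558 and 533 CPM in 2-DG (log2 fold change 0.53, standard error 0.06, adjusted p = 0.000448). Neither gene overlapped between the groups. *Ssr2* and *Ssr1* rose by less, with log2 fold changes of 0.44 and 0.32 (adjusted p = 0.00347 and 0.00321). The summed level of the 4 genes was 867 CPM on average in 1X glucose and 1198 CPM in 2-DG.

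The signal recognition particle is the cytosolic RNA and protein complex that pauses translation at a signal peptide. Of the 5 of its protein genes among the 41, which do not include the SRP54 genes, and the receptor subunit gene *Srprb*, 2 were called, *Srp72* with 255 ± 10.4 CPM in 1X and 306 ± 2.61 CPM in 2-DG (log2 fold change 0.26, adjusted p = 0.00191) and *Srp68* with 152 ± 2.04 and 169 ± 3.58 CPM (log2 fold change 0.16, adjusted p = 0.0197). SRP68 and SRP72 bind each other in the particle. *Srp68* lost its call without 1X glucose replicate 2 or 3 or 2-DG replicate 1 or 2, with an adjusted p of 0.0507 to 0.0656, and with only the compared groups in the fit (0.0702). With the replicate block, *Srp9* (log2 fold change 0.27) and *Srprb* (0.18) were called higher (adjusted p = 7.62e-05 and 0.011), and *Srp14*, whose product pairs with SRP9, was called lower (−0.15, adjusted p = 0.0231). *Srp19* had a log2 fold change of −0.04 with a 95% interval of −0.20 to 0.12.

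In the signal peptidase, the 2 genes for alternative catalytic subunits differed. *Sec11c* had 5.99, 7.02 and 6.96 CPM in 1X glucose and 14.3, 13.2 and 12.3 CPM in 2-DG (log2 fold change 0.99, standard error 0.16, adjusted p = 0.00236). *Sec11a*, the more abundant of the pair, had 77.9, 69.4 and 67.6 CPM in 1X and 77.8, 70.5 and 67.0 CPM in 2-DG (log2 fold change 0.00, 95% interval −0.14 to 0.15). The *Sec11c* libraries did not overlap between groups and the *Sec11a* libraries did. The share of *Sec11c* in the summed CPM of both genes went from 8.56% ± 1.22 to 15.6% ± 0.167 (SD, n = 3). Of the non-catalytic subunits, *Spcs2* had 167, 165 and 151 CPM in 1X and 241, 219 and 203 CPM in 2-DG (log2 fold change 0.46, standard error 0.065, adjusted p = 0.00135). *Spcs3* rose from 146 ± 9.69 to 186 ± 1.32 CPM (log2 fold change 0.35, adjusted p = 0.0087). *Spcs1* had a log2 fold change of −0.15 and was called lower with the replicate block and by DESeq2 (adjusted p = 0.0655 without the block, 0.0224 with it and 0.0285 by DESeq2). It was also called without 1X glucose replicate 3 (adjusted p = 0.0324).

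The COPII coat showed the largest change of the 41 genes. *Sec24d*, one of 4 SEC24 proteins that pick cargo for the coat, had 23.0, 22.5 and 23.7 CPM in 1X glucose, 21.3, 21.7 and 21.8 CPM in 0X, 22.8, 22.5 and 24.8 CPM in 3X and 86.2, 85.2 and 78.3 CPM in 2-DG. The 9 libraries without 2-DG lay between 21.3 and 24.8 CPM and the 3 with it between 78.3 and 86.2 CPM. This was a 3.61-fold difference from 1X glucose (log2 fold change 1.85, standard error 0.058, adjusted p = 1.08e-07), and its p-value ranked 1 among the 16966 genes tested, against 1X as well as against 0X glucose. Its call held in the 6 fits that left out 1 library. The gene next in rank among the 41 was *Copa*, at 90 against 1X.

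The other SEC24 genes moved less. *Sec24a*, which is the closest to *Sec24b*, had 28.0, 32.7 and 37.8 CPM in 1X and 38.4, 48.4 and 45.4 CPM in 2-DG (log2 fold change 0.42, standard error 0.11, adjusted p = 0.0285). *Sec24c*, which pairs with *Sec24d* in the other branch of the family, had 168, 198 and 208 CPM in 1X and 239, 272 and 253 CPM in 2-DG (log2 fold change 0.41, standard error 0.10, adjusted p = 0.0179). *Sec24b* had 79.5, 106 and 114 CPM in 1X and 81.6, 109 and 106 CPM in 2-DG (log2 fold change −0.01, 95% interval −0.31 to 0.28). In all of these 3 genes the 1X level was lowest at passage 13, and the groups overlapped only for *Sec24b*. *Sec24a* lost its call without 1X glucose replicate 1 or 2 or 2-DG replicate 2 or 3 (adjusted p = 0.0809 to 0.109) and with only the compared groups in the fit (0.0863), and *Sec24c* without 1X glucose replicate 1 (0.0540) or 2-DG replicate 2 (0.0687).

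*Sec24d* made up 6.71% ± 0.861 of the summed CPM of the 4 SEC24 genes in 1X glucose, 6.15% ± 0.460 in 0X, 6.65% ± 0.477 in 3X and 17.4% ± 1.72 in 2-DG (SD, n = 3). Such shares are not corrected for transcript length, so they compare groups and do not give shares of RNA molecules.

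Within the inner coat, *Sec23a*, which encodes the GTPase-activating subunit, had 83.1, 98.5 and 85.5 CPM in 1X and 121, 126 and 114 CPM in 2-DG (log2 fold change 0.44, standard error 0.088, adjusted p = 0.00743). Its paralog *Sec23b* had 131, 133 and 125 CPM in 1X and 144, 128 and 129 CPM in 2-DG (log2 fold change 0.05, 95% interval −0.05 to 0.14). The groups did not overlap for *Sec23a* and did for *Sec23b*. Against 0X glucose *Sec23b* had a log2 fold change of 0.10 and was called higher with the replicate block (adjusted p = 0.194 without it and 0.0477 with it). For the outer coat, *Sec31a* had 151, 174 and 189 CPM in 1X and 218, 261 and 244 CPM in 2-DG (log2 fold change 0.49, standard error 0.092, adjusted p = 0.00543), whereas its partner *Sec13*, which also belongs to the nuclear pore, had a log2 fold change of −0.00 (95% interval −0.14 to 0.14). *Preb*, known as SEC12, which loads SAR1 with GTP, rose from 98.5 ± 3.89 to 122 ± 3.48 CPM (log2 fold change 0.31, adjusted p = 0.0104). *Sec16a*, which marks ER exit sites, was called with the replicate block and not without it (log2 fold change 0.27, adjusted p = 0.101 and 0.0016 with it). It was also called without 1X glucose replicate 3 (adjusted p = 0.0367).

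Of the 41 genes, only *Sar1b*, which encodes a form of the GTPase that starts the coat, was called lower on all libraries without the replicate block (edgeR). *Sar1b* had 39.3, 35.0 and 34.2 CPM in 1X glucose and 29.6, 27.6 and 29.9 CPM in 2-DG, and every 2-DG library was below every 1X library (log2 fold change −0.32, standard error 0.072, adjusted p = 0.0135). Without 2-DG replicate 2 the adjusted p was 0.0606. *Sar1a*, the more abundant paralog, had a log2 fold change of 0.06 (95% interval −0.04 to 0.16). *Sar1b* and *Sec24a* are neighbours on chromosome 11, with 6501 bases and no other RefSeq gene between them. *Sec22b*, the SNARE that fuses ER and Golgi carriers, had a log2 fold change of −0.06 (95% interval −0.17 to 0.04).

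On the return route, all 3 KDEL receptor genes and the COPI coat genes *Copa* and *Copb1* were higher in 2-DG, as were *Arf4* and both p24 genes. *Kdelr3* had 4.72, 3.71 and 4.26 CPM in 1X glucose and 12.1, 9.78 and 7.78 CPM in 2-DG, with no overlap (log2 fold change 1.22, standard error 0.16, adjusted p = 0.001). The KDEL receptors catch escaped ER proteins in the Golgi. Per kilobase of transcript, the scale on which genes can be compared, *Kdelr3* had 3.00 CPM per kb in 1X glucose and 7.01 CPM per kb in 2-DG. *Kdelr1* had 74.4, 80.7 and 82.0 CPM in 1X and 101, 98.7 and 99.99 CPM in 2-DG (log2 fold change 0.34, standard error 0.055, adjusted p = 0.00266). *Kdelr2* had 98.9, 112 and 108 CPM in 1X and 134, 139 and 126 CPM in 2-DG (log2 fold change 0.32, standard error 0.065, adjusted p = 0.00772). *Kdelr3* took 2.24% ± 0.385 of the summed CPM of the 3 receptors in 1X glucose and 4.06% ± 0.800 in 2-DG.

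*Tmed2* and *Tmed10* encode p24 proteins, cargo receptors that cycle between ER and Golgi. *Tmed2* had 129, 142 and 129 CPM in 1X and 204, 189 and 172 CPM in 2-DG (log2 fold change 0.50, standard error 0.063, adjusted p = 0.000721). *Tmed10* had 133, 142 and 136 CPM in 1X and 205, 193 and 178 CPM in 2-DG (log2 fold change 0.48, standard error 0.054, adjusted p = 0.000389). In both, the 2-DG libraries lay above those of 1X glucose and the highest was that of passage 13. *Copa* and *Copb1*, subunits of the COPI coat, rose to 451 ± 11.7 and 236 ± 3.37 CPM from 333 ± 10.6 and 196 ± 7.99 CPM (log2 fold change 0.44 and 0.27, adjusted p = 0.000298 and 0.00442). *Arf4*, a GTPase of the early secretory pathway, had a log2 fold change of 0.25 (adjusted p = 0.0144, and 0.0558 without 2-DG replicate 2).

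**Figure D2:**
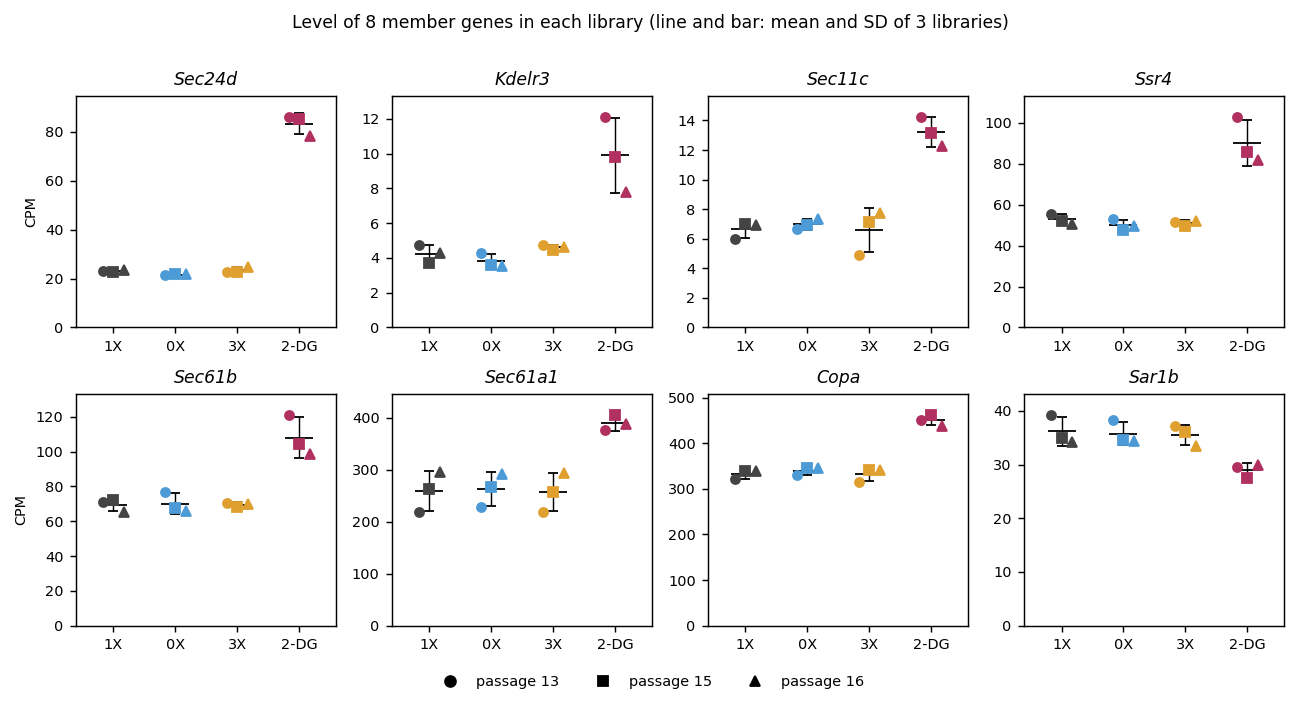
CPM of 8 of the genes in each of the 12 libraries, with 1 symbol for each ES cell passage and the mean and SD of each group of 3. *Sec24d* sits between 78.3 and 86.2 CPM in 2-DG and between 21.3 and 24.8 CPM in the other 9 libraries, and *Sar1b* is the 1 gene of the 8 that is lower in 2-DG.

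Ratios within a library do not depend on the scaling of the library. Of 9 ratios of paralogs compared between 2-DG and 1X glucose, 8 did not overlap between the 3 libraries of each group. All 8 had an exact two-sided permutation p of 0.1, the smallest that 3 against 3 libraries allow (0.1125 after Benjamini-Hochberg adjustment over the 9). Single genes did not overlap for 35.4% of all genes tested, and no share was computed for ratios of other genes. *Sec24d* and *Kdelr3* recur among the 9 ratios, which are not independent. Each of the 8 holds a gene already called by itself, so they are no separate support. The mean log2 ratio shifted by 1.86 for *Sec24d* to *Sec24b*, 1.43 to *Sec24c* and 1.42 to *Sec24a*. It shifted by 0.99 for *Sec11c* to *Sec11a*, by 0.89 for *Kdelr3* to *Kdelr2* and by 0.87 to *Kdelr1*. The shift was 0.40 for *Sec23a* to *Sec23b* and 0.37 for *Sar1a* to *Sar1b*. *Kdelr2* to *Kdelr1* differed by −0.02 with overlapping groups (exact p = 0.9).

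**Figure D3:**
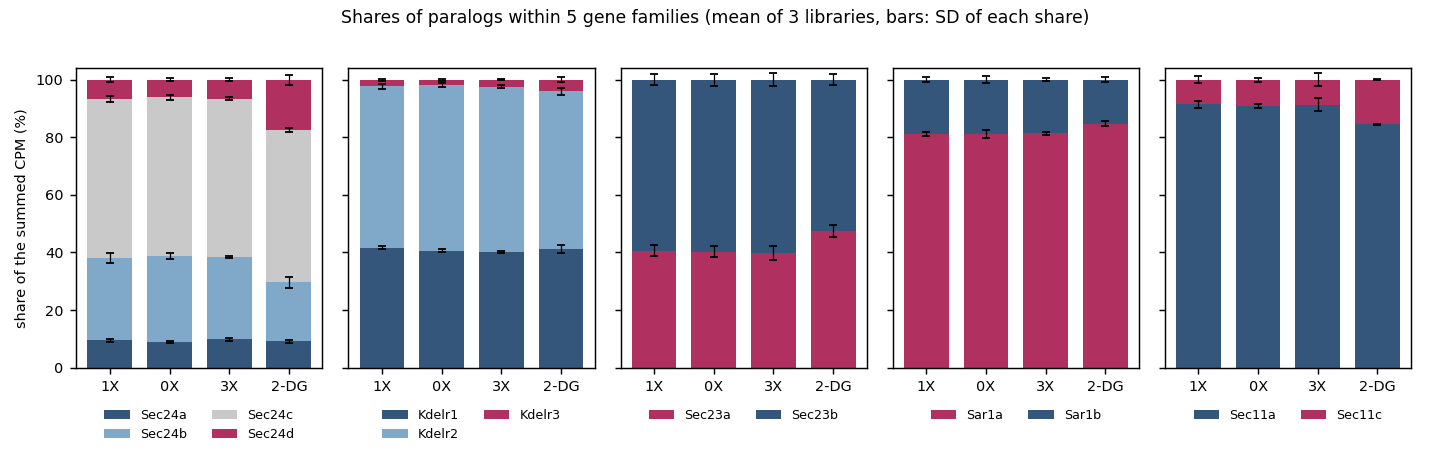
Share of each paralog in the summed CPM of its family, in percent, as the mean of 3 libraries per group with bars for the SD of each share. CPM is not corrected for transcript length. The share of *Sec24d* is 17.4% in 2-DG and 6.15% to 6.71% in the 3 other groups, and that of *Kdelr3* is 4.06% in 2-DG and 2.24% in 1X glucose.

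Removing or raising glucose gave no difference from 1X glucose that passed the threshold in any of the 41 genes. None was called in 0X against 1X glucose (0.0118% of all genes were, which is 2 genes) and none in 3X against 1X glucose (0 of all genes, edgeR). At an unadjusted p under 0.05 the counts were 1 of the 41 genes in 0X (*Spcs1*, log2 fold change −0.12) and 0 in 3X, and DESeq2 called none of the 41 in either comparison. Over all genes, 306 and 178 had an unadjusted p under 0.05, and DESeq2 called 12 and 2. The fit without a passage term counts passage differences as spread, which can raise these p-values. Its common dispersion, edgeR's measure of that spread, was 0.0316, against 0.0063 with the replicate block. With the block, none of the 41 was called in 0X or 3X, and 3 and 0 of all genes were. The median log2 fold change was 0.00 in 0X and in 3X. Fitted differences ran from −0.16 (*Kdelr3*) to 0.16 (*Sec16a*) in 0X and from −0.05 (*Ssr2*) to 0.12 (*Kdelr3*) in 3X. For *Sec24d* the 95% interval was −0.21 to 0.02 in 0X and −0.09 to 0.13 in 3X. The 0X and 1X groups did not overlap for 1 of the 41 genes (*Sec24d*, lower in 0X), against 5.63% of all genes tested. The 3X and 1X groups did not overlap for 0 of the 41, against 4.47% of all genes. The widest bounds over the 41 genes were −0.48 and 0.38 in 0X and −0.32 and 0.44 in 3X, and smaller differences could not be told from none in the genes with the widest intervals.

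Tested directly, 2-DG also differed from glucose removal. Against 0X glucose 26 of the 41 genes were higher in 2-DG and 1 was lower (all genes 18.9%, with 9.86% higher and 9.04% lower), and these were the 27 genes called against 1X glucose. With the replicate block, 32 were called, 30 higher and 2 lower, and the 5 added genes were *Sec61g*, *Srp9*, *Srprb* and *Sec23b* (higher) and *Srp14* (lower). Over all 16966 genes the block called 7305 in this comparison, 3655 higher and 3650 lower. Both comparisons share the 2-DG libraries and do not count as independent. The values stood side by side as follows for the 4 genes that moved furthest. *Sec24d* was 1.95 on the log2 scale above 0X and 1.85 above 1X. *Kdelr3* was 1.38 above 0X and 1.22 above 1X. *Sec11c* was 0.92 and *Ssr4* 0.85 above 0X, next to 0.99 and 0.77 above 1X.

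Since each group held 1 library of each ES cell passage, the difference could be read within passages. Of the 41 genes, 31 were higher in 2-DG than in 1X glucose in 3 of 3 passages, 4 were lower in all and 6 were mixed. In 0X against 1X glucose, 8 were higher in all passages, 8 lower in all and 25 mixed. In 3X against 1X glucose the counts were 3, 4 and 34. Agreement in 3 of 3 passages was not counted over all genes. The 2-DG and 1X glucose groups did not overlap for 30 of the 41, against 35.4% of all genes tested. With the passage as a replicate block, 33 of the 41 genes were called, 30 higher and 3 lower (*Sar1b*, *Srp14* and *Spcs1*), and they included all 27 called without it. The block raised the share of all genes called to 41.3%. For 21 of the 26 higher genes the difference was largest at passage 13, for 4 at passage 15 and for 1 (*Srp72*) at passage 16. Among all 1547 genes higher in 2-DG, 52.0% had their largest difference at passage 13. With 1 library per group and passage this carries no test.

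**Figure D4:**
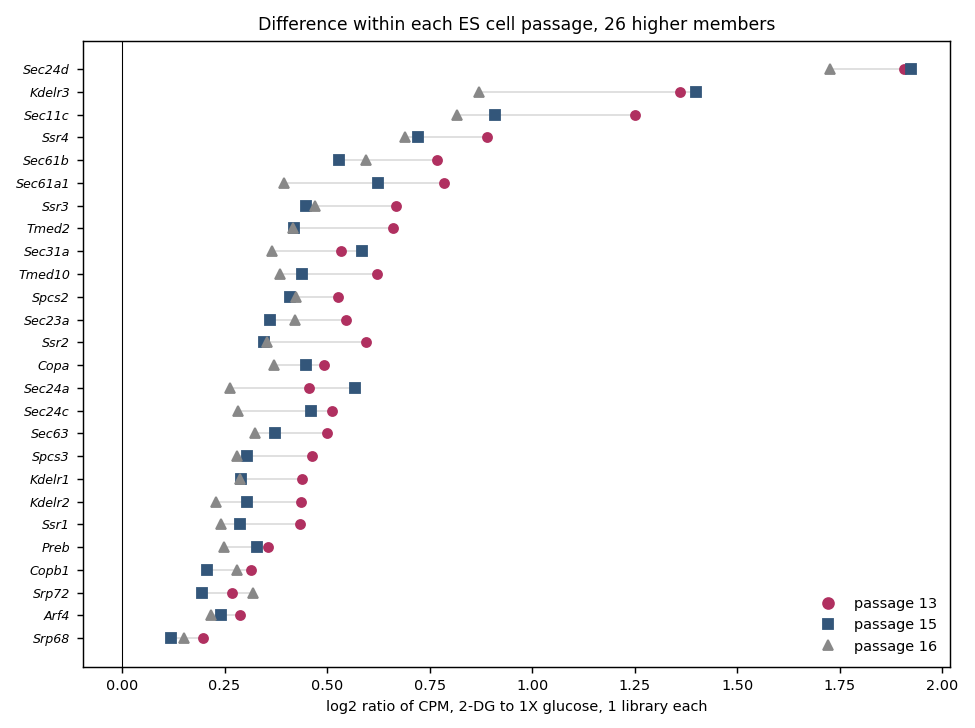
Log2 ratio of CPM in 2-DG to 1X glucose within each ES cell passage, for the 26 genes called higher, each symbol comparing 1 library with 1 library. All symbols lie to the right of 0, and the circle of passage 13 is the rightmost for 21 of the 26 genes.

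The share of the genes that differed between passages was close to that over all genes. In the fit with group and passage, 20 of the 41 genes differed between passages at an adjusted p under 0.05 (edgeR's quasi-likelihood F test), against 46.2% of all genes. The clearest were *Srp9*, at 91.3, 78.9 and 74.7 CPM on average over the 4 groups at passages 13, 15 and 16 (adjusted p = 4.09e-05), and *Sec24b*, at 85.9, 107 and 111 CPM (adjusted p = 0.000144). *Sec24d* was the gene with the least such difference, at 38.3, 38.0 and 37.1 CPM (adjusted p = 0.927).

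How StringTie divided reads among transcripts touches several of these genes. Of the 41 genes, 21 were listed as 1 transcript and 20 as more, up to 21 for *Sec31a*, and in 13 the most abundant transcript held under 90% of the counts. With that transcript alone in place of the gene total, 16 genes were called higher and none lower in 2-DG against 1X glucose. Over all genes that fit called 653, next to 2990 on gene totals. *Sec24d*, *Kdelr3*, *Sec11c*, *Ssr4*, *Sec61b*, *Sec61a1*, *Ssr3*, *Tmed2*, *Tmed10* and *Spcs2* kept their calls. Of the 27 genes called on gene totals, 11 lost the call. *Srp68*, *Arf4* and *Sar1b* are listed as 1 transcript and kept their log2 fold changes of 0.16, 0.25 and −0.32 (adjusted p = 0.0711, 0.0511 and 0.0754). *Sec63*, *Ssr2*, *Ssr1* and *Sec24a* had log2 fold changes of 0.50, 0.86, 0.25 and 0.28 (adjusted p = 0.179, 0.132, 0.503 and 0.668). *Sec31a* went to −0.03 on the log2 scale, *Preb* to −0.32, *Sec23a* to 0.06 and *Sec24c* to 0.17 (adjusted p = 0.998, 0.293, 0.935 and 0.719). In *Sec24c* the second transcript went from 51.2 ± 13.7 CPM in 1X to 119.8 ± 2.2 CPM in 2-DG while the first had 101.0 ± 17.2 and 113.8 ± 11.8 CPM. In *Sec23a* the second transcript held 23.2% of the counts in 1X and 41.1% in 2-DG, but also 49.8% in 0X glucose, where the gene total was not called.

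Some counts may be shared with other genes, as the strand setting of the counting was not given in the sources used here. *Kdelr3* overlaps *Ddx17*, an RNA helicase gene at 817 ± 17.6 CPM in 1X glucose and 946 ± 20.5 CPM in 2-DG (log2 fold change 0.21, adjusted p = 0.00787, edgeR), far above *Kdelr3* itself. *Copa* overlaps *Ncstn* and *Spcs1* overlaps *Glt8d1*, neither of which was called in 2-DG (adjusted p = 0.919 and 0.708). *Tmed10* has a counted pseudogene, *Tmed10-ps*, with 22.9% as many counts, which rose with it (log2 fold change 0.41, adjusted p = 0.00218). Whether reads crossed between these genes was not tested.

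Of other genes of the same route, 4 lists of neighbouring functions had 24% to 42.9% of their genes called in 2-DG against 1X glucose. This was without the replicate block, and over all genes 9.12% were higher and 8.51% lower. Of 19 further COPII and cargo receptor genes 8 were higher and none lower, led by the cargo receptor gene *Surf4* (log2 fold change 0.74, adjusted p = 5.12e-05), with *Mia3* (0.53), which helps load collagen, and the lectin genes *Lman2* (0.45) and *Lman1* (0.41). Of 21 further COPI, Arf and p24 genes 8 were higher and none lower, with *Arfgap3* (0.86), *Tmed3* (0.71), *Cope* (0.45) and *Tmed9* (0.44) ahead. Of 14 ER to Golgi SNARE and tether genes 5 were higher, among them the tether gene *Uso1* (0.52), and *Ykt6* was lower (−0.18). Of 25 further translocation genes 4 were higher (*Serp1* 0.69, *Tram1* 0.59, *H13* 0.58 and *Sec61a2* 0.35) and 2 lower (*Emc4* −0.24 and *Emc8* −0.20), the latter 2 being subunits of the ER membrane protein complex, another insertion route. The 6 of 25 translocation genes called are 24%, next to 17.6% over all genes. The median log2 fold changes of these 4 lists were 0.12, 0.18, 0.17 and 0.04. With the replicate block the counts were 11 higher and 1 lower (COPII), 15 and 1 (COPI), 9 and 1 (SNAREs and tethers) and 8 and 6 (translocation), next to 41.3% of all genes called.

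Among 12 genes for ER stress sensors, transcription factors and chaperones, 8 were higher in 2-DG than in 1X glucose and none was lower (median log2 fold change 0.67). Over all genes, 9.12% were higher and 8.51% lower. With the replicate block, 11 of the 12 were higher and none lower, next to 41.3% of all genes called. *Xbp1*, the transcription factor downstream of IRE1, had 43.5, 48.7 and 44.2 CPM in 1X glucose and 111, 106 and 89.2 CPM in 2-DG (log2 fold change 1.17, adjusted p = 5.12e-05). *Hspa5*, which encodes the ER chaperone BiP, had 596, 659.9 and 619 CPM in 1X and 1509.8, 1356 and 1204 CPM in 2-DG (log2 fold change 1.12, adjusted p = 5.12e-05). Neither overlapped between the groups. *Hsp90b1* rose by a log2 fold change of 1.05, *Atf4* by 0.49 and *Ddit3* by 0.76 (adjusted p = 3.99e-05, 0.00613 and 0.00972). Of the CREB3 family, whose members are known to act on secretory genes, *Creb3l1* rose from 2.85 ± 1.03 to 7.91 ± 1.78 CPM (adjusted p = 0.0163). *Creb3l2* had 22.4, 61.7 and 56.2 CPM in 1X and 71.7, 104.5 and 89.6 CPM in 2-DG at passages 13, 15 and 16. It was higher in 3 of 3 passages without overlap between the groups, with an adjusted p of 0.17 without the replicate block and 0.000495 with it. *Atf6* had a log2 fold change of 0.19 (adjusted p = 0.0687).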

How the data were processed

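Day 4 gastruloids of 4 treatment groups were profiled by polyA RNA sequencing, with 3 libraries per group. Per the labels and the methods, reads were trimmed with Trim Galore, aligned with HISAT2 to mm10, cleared of PCR duplicates with Picard and assigned to transcripts with StringTie on Galaxy. Versions, annotation and strand settings are not given in the sources used here. The authors deposited, for each library, an estimated count for each of 120312 RefSeq transcripts, all whole numbers and so not rounded further. Their 3 tables of DESeq2 comparisons, with fold changes and p-values, were not used. All transcripts were found in the RefSeq table of GRCm38.p6, and counts were summed per gene symbol. *Hm13* was looked up as *H13*. The 31902471 to 45956080 counts per library set the precision of low genes.

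The 4 groups were fitted together without a passage term in R 4.3.3 with edgeR 4.0.16 (TMM, filterByExpr, glmQLFit and glmQLFTest), with Benjamini-Hochberg adjustment over the 16966 genes kept. Standard errors were taken from the F statistic, and 95% intervals are 1.96 standard errors on either side. That multiplier is the one of a normal distribution, so with 12 libraries in 4 groups these intervals are approximate and somewhat too narrow. The replicate numbers pair the libraries because the labels give same-numbered libraries the same ES cell passage. For deviations from the group means, Pearson's r across genes was 0.182 to 0.763 for the 18 pairs of libraries with the same passage and −0.585 to 0.317 for the other 36. Alternatives were median-of-ratios factors, no filter, the replicate block, only the compared groups, DESeq2 1.42.0, the most abundant transcript alone, and leaving out each library. Paralog ratios were compared with SciPy 1.17.1. Transcript lengths came from GENCODE M21.

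The 41 genes, the neighbouring lists, the motifs and the markers were chosen with earlier results of these data known, from general knowledge of these genes. All 41 genes could be named. Values in every library are given for the 12 genes with the largest absolute log2 fold change among those called in 2-DG against 1X glucose, for their paralogs and, as chosen after its values were seen, for *Sar1b*. From the other lists, up to 4 called genes with the largest change were named, and *Xbp1*, *Atf6*, *Creb3l2*, *Atf4*, *Ddit3* and *Hspa5* whatever their values. *Emc4*, *Emc8*, *Ykt6* and the 4 genes that overlap or copy one of the 41 were named after their values were seen. Other endoderm and fibroblast markers are given as sums only.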

Additional observations from a re-analysis of the deposited data

How the results depend on the processing

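With the replicate block, 3 of the 41 genes were lower in 2-DG than in 1X glucose (2 than in 0X), and 7001 and 7305 genes were called. With the most abundant transcript alone, 16 of the 41 genes were higher than in 1X and 15 than in 0X, none was lower in either, and 653 and 775 genes were called (2 in 3X). Only the compared groups gave 1896 genes in 2-DG against 1X and 0 in 0X against 1X. DESeq2 gave 2 lower among the 41 in 2-DG against 1X, 12 genes in 0X and 2 in 3X. Leaving out 1 library gave 22 to 26 higher and 0 to 2 lower of the 41 and 1734 to 2352 genes against 1X, 22 to 26, 0 to 1 and 2051 to 2619 against 0X, 1 to 3 genes in 0X and 0 in 3X. The cause of these changes was not tested. The calls that the replicate block changed among the 41 are given with the comparisons, and it changed none in 0X or 3X against 1X glucose.

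Over fits of single genes under alternatives, 438 kept direction and call, 24 lost the call, 9 gained it and 21 turned in sign. With the most abundant transcript alone, the log2 fold change was −0.030 for *Sec31a*, −0.20 for *Sec16a*, −0.077 for *Sar1a*, −0.32 for *Preb*, 0.10 for *Sec62*, 0.042 for *Sec24b* and 0.00025 for *Sec13*. The other reversals were in genes not called. *Sec11a* went to −0.016 without a filter and −0.00015 with DESeq2. Over the 6 fits without 1 library, *Sec11a* ran from −0.061 to 0.068, *Sec62* from −0.061 to 0.029, *Srp19* from −0.088 to 0.0041, *Sec23b* from −0.013 to 0.071, *Sec24b* from −0.15 to 0.11 and *Sec13* from −0.040 to 0.033. Depth limits *Kdelr3* and *Sec11c* most, the 2 of the 41 genes with the lowest mean CPM.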
